A study of Homo sapiens with 6 samples.

Results

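Lysosomes are the acid compartments in which cells digest proteins, sugars and lipids, and the genes described here encode their hydrolases, their lipid carriers, their membrane proteins and the proton pump that acidifies them. The set holds 55 genes: 32 named hydrolases, carriers and membrane proteins, and the 23 genes of the array annotation whose symbols begin with ATP6V0 or ATP6V1. Of the 55, 51 had a probe set assigned to that gene alone, among 19775 genes with such a probe set, and 45 passed the filter on low values (a highest value of at least 3.66 on the log2 scale). For genes with several probe sets, the one with the highest mean level over the 6 arrays stood for the gene. As this mean includes the late arrays, the choice can favour a probe set that rose.

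The cells were NB4, an established line from a human with acute promyelocytic leukaemia in which the PML-RARA fusion blocks maturation, cultured with fetal bovine serum. All-trans retinoic acid (ATRA), which binds retinoic acid receptors and lets such cells differentiate toward neutrophils, was given at 1e-06 M. The groups were untreated cells (0 h) and cells in ATRA for 4, 12, 24, 48 or 72 h, with 1 array each and 6 in all. No group had a replicate. Untreated cells were read at 0 h only, so the effect of ATRA cannot be told apart from that of days in culture. Fewer cells of a type and less RNA per cell also cannot be told apart in such bulk RNA.

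Lysosomal enzymes are made as precursors in the endoplasmic reticulum, most are tagged with mannose 6-phosphate and sorted to endosomes, and many become active only at acid pH. The proton pump (V-ATPase) has a membrane sector, V0, that conducts protons and a cytosolic sector, V1, that hydrolyses ATP. The transcription factors TFEB, TFE3, MITF and TFEC bind E-box sequences, and a palindromic form of them is known from the promoters of many lysosomal genes. In promyelocytes, part of this enzyme content is packed into azurophil granules, which are related to lysosomes.

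Array medians lay between 3.64 and 3.69, as the deposited values had been normalised together. The spiked control bioC read 8.01 and 8.11 on the 0 and 12 h arrays and 6.88 to 7.17 on the other arrays. A ribosomal RNA control (18S, 3′ probe set) was 3.92 higher at 12 h than in untreated cells on the log2 scale, and a 28S control (5′ probe set) was higher by 3.55, 2.75 and 2.86 at 12, 48 and 72 h. The 3′ minus 5′ difference of GAPDH stayed between 0.02 and 0.21 on all 6 arrays. Of 7 azurophil granule markers 6 were kept and 4 fell, and the myeloperoxidase gene MPO read 12.90 in untreated cells and 10.92 at 72 h. The other kept markers of this list had no call. PRTN3 read 10.76 in untreated cells and stayed above that on every later array, with 11.65 at 24 h and 11.07 at 72 h. AZU1 went from 9.32 in untreated cells to 9.97 at 4 h and 9.05 at 72 h. ELANE lay below the filter. All 6 kept neutrophil markers of 7 rose, and the summed linear level of the 7 went from 208.3 to 18680. Of 12 monocyte and macrophage markers 5 were kept, of which 3 rose (MERTK, ADGRE1 and CD86). All 5 were 2-fold or more higher at 72 h, against 10.9% of all kept genes. CSF1R and CD163 were 1.31 and 1.54 higher and not called. Of the 5, 3 were below the filter in untreated cells. The summed linear level of the 11 with a probe set was 128.8, 132.4, 228.5, 232.3, 437.1 and 1498 from 0 to 72 h. MERTK alone made up 1208 of the sum at 72 h, and without it the sum was 118.7 at 0 h and 290.3 at 72 h. Without the 72 h array the calls of RNASE2, S100A12, FPR1 and CD86 among these markers were lost, as were those of RNASE2, FPR1 and CD86 without the 4 h array, of FPR1 without the 12 or 48 h array and of RNASE2 without the untreated array. With a shift on all hybridisation controls, 3 of the 4 falling calls (MPO, CTSG and RNASE2) were lost. With the bioC level as a covariate, those of S100A12 and FPR1 were. CD14, MRC1, MSR1, VCAN, C1QA and C1QB were below the filter on all arrays, and the part of these other markers in the lysosomal values was not tested.

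Transcripts of most kept hydrolases, lipid carriers and membrane proteins of this set were higher after 72 h of ATRA. Most kept pump subunits were within 2-fold of untreated cells. Further lysosomal genes outside the set are given below, and fewer of them were higher by 2-fold or more. At 72 h, 24 of the 45 kept genes stood 2-fold or more above untreated cells and 1 stood as far below, against 10.9% and 12.2% of all 13594 kept genes. A trend over time order was fitted with limma to all kept genes, and it called 19 of the 45 rising and 1 falling at an adjusted p under 0.05. Over all kept genes it called 8.33% rising and 9.86% falling. Outside the pump, 18 of 29 genes rose and 1 fell. In the pump, 1 of 16 rose and none fell. Without the 72 h array the rising count was 9 of 45 (20.0%), against 3.24% of all kept genes. With the 4 arrays that share the lower bioC level alone, 3 of 45 rose (6.67%: CTSD, CTSS and TPP1), against 2.2%.

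**Figure D1:**
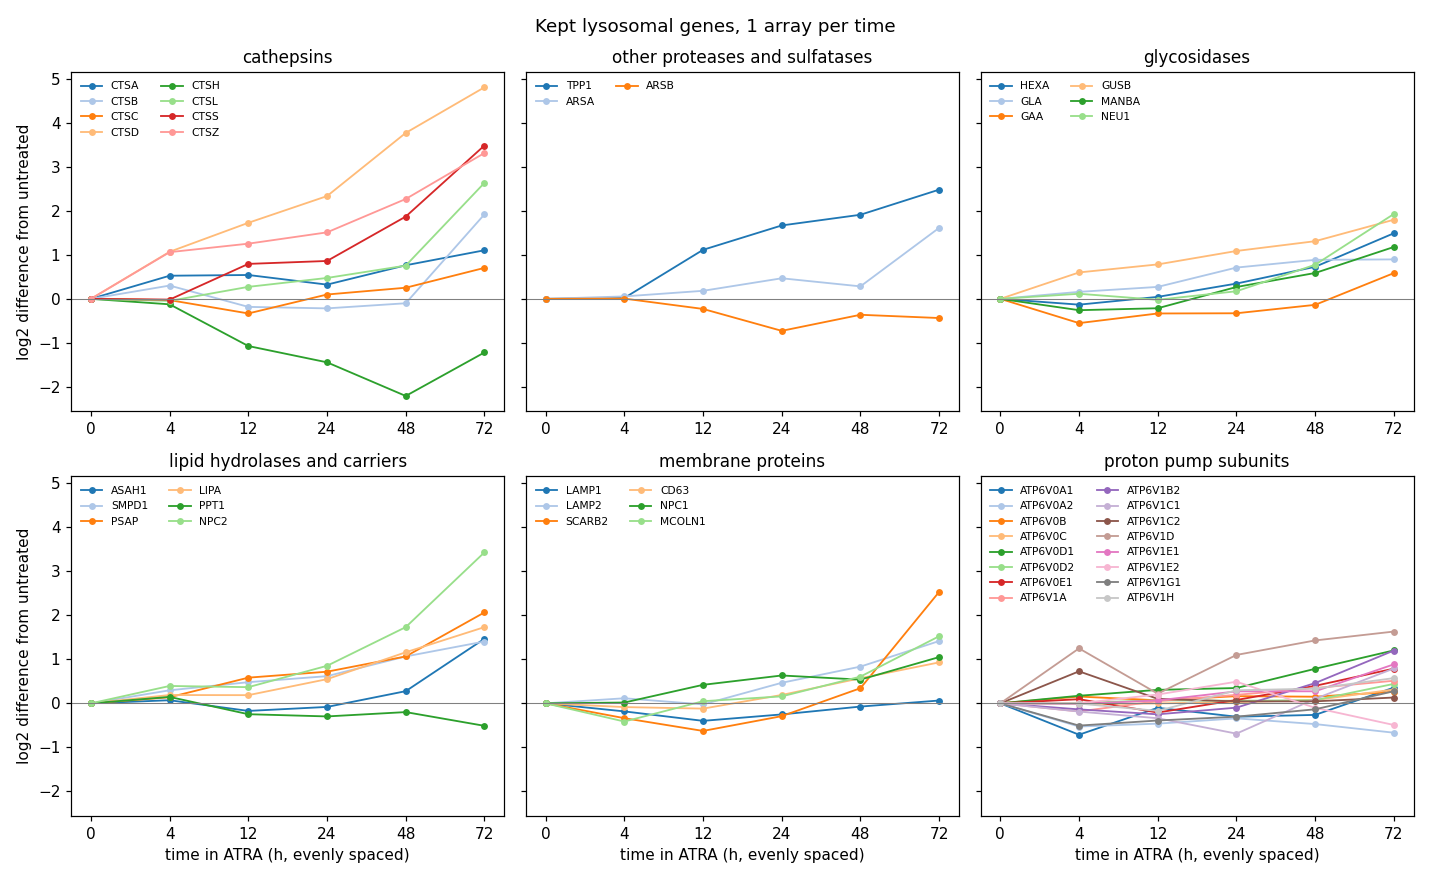
Log2 difference from the untreated array (vertical axis) against time in ATRA (horizontal axis, evenly spaced), for the 45 kept genes in 6 panels by class; each point is 1 array. CTSD reaches 4.81, CTSH lies below 0 from 4 h on, and most pump subunits stay between -1 and 1.

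The promoter windows of 6 genes are shown because members with and without a rise carry the same E-box. RefSeq promoter windows of 300 bases (250 before to 50 after the annotated start, build GRCh38.p14) were found for 30 of the 45 kept genes. The E-box CACGTG, which reads the same on both strands, was in 10 of the 30 windows (33.3%), against 10.0% of the windows of 10865 kept genes and 7.43% of all 27305 windows. The longer palindrome TCACGTGA was in 6 of the 30 (20.0%) and in 1.84% of those of all kept genes. The full element, TCACGTGA with a G before and a C after it, contains both shorter forms and was in 3 (10.0%: GAA, MCOLN1 and ATP6V1G1) and in 0.764%. CACGTG stood in 5 of 15 windows of genes at least 2-fold above untreated at 72 h, and in 5 of 15 windows of the others, 33.3% each. The 200 bases before the start are printed 5′ to 3′ on the gene's strand, with CACGTG in capitals. The coordinates are chr11:1763928-1764127 (minus strand) for CTSD, chr20:59007255-59007454 (minus strand) for CTSZ, chr19:7522424-7522623 (plus strand) for MCOLN1, chr17:80101381-80101580 (plus strand) for GAA, chr13:113297039-113297238 (plus strand) for LAMP1, chr9:114587569-114587768 (plus strand) for ATP6V1G1.
CTSD: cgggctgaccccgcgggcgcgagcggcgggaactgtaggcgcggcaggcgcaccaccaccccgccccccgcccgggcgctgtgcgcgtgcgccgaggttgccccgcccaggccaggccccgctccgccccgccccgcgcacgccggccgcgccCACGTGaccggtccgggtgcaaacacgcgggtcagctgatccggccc
CTSZ: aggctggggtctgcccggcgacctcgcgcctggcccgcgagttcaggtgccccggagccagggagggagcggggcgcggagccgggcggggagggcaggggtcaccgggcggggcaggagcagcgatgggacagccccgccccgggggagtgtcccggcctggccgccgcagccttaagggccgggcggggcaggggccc
MCOLN1: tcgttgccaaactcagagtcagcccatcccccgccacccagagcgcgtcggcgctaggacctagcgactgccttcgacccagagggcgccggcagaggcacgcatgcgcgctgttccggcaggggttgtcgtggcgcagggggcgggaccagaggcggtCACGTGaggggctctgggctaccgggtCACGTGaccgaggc
GAA: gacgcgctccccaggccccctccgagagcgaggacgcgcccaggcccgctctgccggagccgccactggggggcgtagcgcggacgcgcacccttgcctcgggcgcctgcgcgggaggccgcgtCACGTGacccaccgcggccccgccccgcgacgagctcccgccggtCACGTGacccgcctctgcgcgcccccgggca
LAMP1: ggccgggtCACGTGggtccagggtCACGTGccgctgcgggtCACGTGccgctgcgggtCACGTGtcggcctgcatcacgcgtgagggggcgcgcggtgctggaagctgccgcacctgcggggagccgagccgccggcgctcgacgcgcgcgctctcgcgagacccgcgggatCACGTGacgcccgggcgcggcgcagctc
ATP6V1G1: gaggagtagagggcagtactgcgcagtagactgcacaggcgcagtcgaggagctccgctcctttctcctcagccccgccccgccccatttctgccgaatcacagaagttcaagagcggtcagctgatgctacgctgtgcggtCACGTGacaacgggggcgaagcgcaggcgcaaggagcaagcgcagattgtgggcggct

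CTSD, with the largest difference of the set at 72 h, has 1 CACGTG, at -47 from its start (negative positions are bases before the start). LAMP1, whose transcript differed by 0.06 at 72 h, has 5 in the printed bases and a further one that spans the start. CTSZ, 9.94-fold higher at 72 h, has none in its window. GAA carries the full element at -78 and -33 and MCOLN1 carries it at -16. The former was 0.59 higher at 72 h and the latter 1.52. A match of letters is not a bound site. An exact form of a retinoic acid receptor element (AGGTCA repeated in the same direction with any 5 bases between) was searched on both strands. It stood in none of the 30 windows, nor in any window of the kept genes, and in 1 of all 27305. This search could not show whether other forms of the element were present. An interferon response element (GAAA repeated with any 2 bases between) stood in none of the 30 and in 2.79% of the windows of kept genes. A PU.1-type site (GAGGAAGT) stood in the window of ATP6V0D1 alone (3.33%), against 2.72%.

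The cathepsins are the main lysosomal proteases, and their class had the highest median difference at 72 h of the 5 classes with 6 or more kept genes, 2.28. All 8 were kept: 4 rose (CTSD, CTSL, CTSS and CTSZ), 1 fell (CTSH) and 3 were not called. At 72 h, 6 were 2-fold or more higher and 1 was lower. At 4, 12, 24 and 48 h the class median was 0.14, 0.41, 0.40 and 0.76. The median over all kept genes at 72 h was -0.06.

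CTSD encodes the aspartic protease cathepsin D. Its log2 level was 5.23 in untreated cells and 6.30, 6.96, 7.57, 9.0 and 10.04 at 4, 12, 24, 48 and 72 h. Every later array was above the one before, and the 72 h level was 28.0-fold the untreated one. The slope was 0.94 ± 0.06 (SE) per time step (limma adjusted p = 0.000279).

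CTSS encodes cathepsin S, a cysteine protease that trims the invariant chain of MHC class II. It read 6.94, 6.93, 7.74, 7.81, 8.81 and 10.43 in the same order. It was level to 4 h and highest on the 48 and 72 h arrays, 11.2-fold above untreated at the end. Its slope was 0.66 ± 0.10 (limma adjusted p = 0.00598). All 3 of its kept probe sets were more than 2-fold higher at 72 h, by 2.61 to 3.48.

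CTSZ encodes cathepsin Z, a carboxypeptidase. Its values were 6.15, 7.21, 7.40, 7.66, 8.42 and 9.46, so the 4 h array already stood 1.06 above the untreated one. The slope was 0.58 ± 0.07 (limma adjusted p = 0.0022). A second kept probe set of CTSZ did not show this: it read 5.08 in untreated cells and 5.16 at 72 h.

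CTSL and CTSB, which encode the endopeptidases cathepsin L and cathepsin B, were highest on the 72 h array. CTSL read 5.98, 5.94, 6.26, 6.46, 6.74 and 8.62, and it rose with a slope of 0.45 ± 0.11 (limma adjusted p = 0.0277). CTSB read 7.37, 7.67, 7.18, 7.15, 7.27 and 9.29. It lay within 0.30 of the untreated value up to 48 h and was 2.02 higher at 72 h than at 48 h. All 5 kept probe sets of CTSB were 2-fold or more higher at 72 h, by 1.72 to 2.42, but the trend was not called (limma adjusted p = 0.273). The call of CTSL was lost without the 4, 12 or 72 h array and with the bioC level as a covariate.

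CTSH, for the aminopeptidase cathepsin H, was the member that went the other way. It read 9.16, 9.04, 8.09, 7.72, 6.96 and 7.95. The lowest array was 48 h, 2.21 below untreated, and the 72 h array was 0.99 above that. The slope was -0.36 ± 0.10 (limma adjusted p = 0.0404). This call was lost without any 1 of the 0, 4, 12, 24 and 48 h arrays, with cyclic loess, with the bioC level as a covariate and with a shift on all hybridisation controls.

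CTSA (cathepsin A, which also protects neuraminidase and beta-galactosidase) was 1.10 higher at 72 h and CTSC (cathepsin C, which activates the serine proteases of azurophil granules) was 0.70 higher. Neither was called (limma adjusted p = 0.0605 and 0.101). Cathepsin G is a granule serine protease outside the set. Its gene CTSG read 6.83 in untreated cells and 4.40 at 72 h and fell (limma adjusted p = 0.0017), a call that was lost with a shift on all hybridisation controls.

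Among the other proteases, TPP1, the tripeptidyl peptidase lost in a neuronal ceroid lipofuscinosis, read 8.06, 8.08, 9.17, 9.73, 9.97 and 10.54. It was level at 4 h and 1.11 higher at 12 h, and 67.2% of its 72 h difference was present at 24 h. It rose with a slope of 0.53 ± 0.06 (limma adjusted p = 0.00153), and 3 of its 4 kept probe sets were 2-fold or more higher at 72 h. LGMN, the asparaginyl endopeptidase legumain, was below the filter.

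The glycosidases cut sugars from glycolipids, glycoproteins and glycogen. Of 7, 6 were kept; 5 rose, none fell and GAA was not called. The median difference was 1.33 at 72 h, and 4 of the 6 were 2-fold or more higher. GLB1 (beta-galactosidase) had no probe set of its own.

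GUSB encodes beta-glucuronidase. It read 8.54, 9.14, 9.32, 9.63, 9.85 and 10.34, each array above the one before, with a slope of 0.33 ± 0.04 (limma adjusted p = 0.00278). NEU1, for the sialidase neuraminidase 1, read 7.40, 7.51, 7.37, 7.57, 8.17 and 9.32. It lay within 0.17 of untreated to 24 h and was 3.80-fold higher at 72 h (slope 0.34 ± 0.09, limma adjusted p = 0.0365).

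HEXA encodes the alpha subunit of beta-hexosaminidase and read 8.42, 8.29, 8.47, 8.77, 9.15 and 9.91. The 48 and 72 h arrays were highest, and it rose (slope 0.30 ± 0.06, limma adjusted p = 0.0177). MANBA (beta-mannosidase) was 1.18 higher at 72 h and GLA (alpha-galactosidase A) 0.90 higher, and both rose. GLA reached its 72 h difference by 48 h, when it stood 0.89 above untreated. GAA, the glycogen-degrading acid alpha-glucosidase, was below untreated on the 4, 12, 24 and 48 h arrays and 0.59 above it at 72 h (limma adjusted p = 0.298). The calls of HEXA, NEU1 and MANBA were lost without the 72 h array, those of NEU1 also without the 4, 12 or 48 h array and those of MANBA without the 4 or 48 h array, and that of GLA without the untreated array. With the bioC level as a covariate NEU1 and MANBA lost their calls, under both shifts on spiked controls GLA and MANBA did, under the shift without bioC NEU1 did, and with the mean of probe sets HEXA did.

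The sulfatases ARSA and ARSB remove sulfate from sulfatide and from dermatan sulfate. ARSA read 4.62, 4.67, 4.80, 5.08, 4.90 and 6.23, and its 72 h array stood apart from the other 5 (slope 0.26 ± 0.08, limma adjusted p = 0.0518). The other kept probe set of ARSA was 0.18 higher at 72 h. ARSB was 0.44 lower at 72 h and was not called.

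The lipid hydrolases and carriers had a median difference of 1.60 at 72 h. All 6 were kept: 4 rose (NPC2, PSAP, LIPA and SMPD1), none fell, and 5 were 2-fold or more higher at 72 h. NPC2, the soluble protein that hands cholesterol to NPC1 for export, had the largest difference of the class. Its log2 level was 7.16, 7.56, 7.53, 8.02, 8.90 and 10.60. The last array was 1.70 above the 48 h array and 10.8-fold above untreated (slope 0.62 ± 0.11, limma adjusted p = 0.00984).

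PSAP encodes the precursor of the saposins, which lift sphingolipids out of membranes for their hydrolases. It read 9.76, 9.90, 10.34, 10.48, 10.82 and 11.82, each array above the one before. Its slope was 0.38 ± 0.05 (limma adjusted p = 0.00468), and its second probe set was 2.10 higher at 72 h. LIPA, for the lipase of cholesteryl esters and triglycerides, read 8.28, 8.46, 8.46, 8.82, 9.44 and 10.01 and rose with a slope of 0.34 ± 0.06 (limma adjusted p = 0.00796). A second LIPA probe set lay below the filter to 24 h (2.46, 2.44, 2.50 and 2.53) and read 4.98 at 48 h and 6.72 at 72 h. The call of LIPA was lost without the 72 h array.

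SMPD1 (acid sphingomyelinase) was 1.07 higher at 48 h and 1.41 higher at 72 h, and rose with a slope of 0.27 ± 0.04 (limma adjusted p = 0.0057). Of its 3 kept probe sets, 1 was 0.06 lower at 72 h, and with the mean of probe sets the slope was 0.097 and the call was lost (limma adjusted p = 0.0604). ASAH1 (acid ceramidase) read 7.81, 7.88, 7.63, 7.72, 8.08 and 9.27. Like CTSB it was near the untreated value to 24 h, and the 72 h array was highest (limma adjusted p = 0.122). Its probe sets disagreed: 3 of 4 kept ones were 1.34 to 1.51 higher at 72 h and the fourth was 0.096 higher. The probe set used is of a kind prone to cross-hybridisation, and without such probe sets the slope was -0.010 and ASAH1 was not among the genes 2-fold or more higher. PPT1, which removes palmitate from proteins, was 0.51 lower at 72 h and was not called (limma adjusted p = 0.118).

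The membrane proteins had a median difference of 1.23 at 72 h. Of 7, 6 were kept; 4 rose (LAMP2, MCOLN1, NPC1 and CD63) and none fell. The macrophage marker CD68, also a lysosomal membrane protein, had no probe set of its own.

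LAMP1 and LAMP2 encode the main glycoproteins of the lysosomal membrane, and LAMP2 was called rising while LAMP1 was not. LAMP1 read 11.43, 11.25, 11.03, 11.18, 11.36 and 11.50, so the highest array was 0.06 above untreated and its slope was 0.02 ± 0.04 (limma adjusted p = 0.759). Its 4 kept probe sets differed by -0.05 to 0.29 at 72 h. LAMP2 read 8.53, 8.64, 8.50, 8.99, 9.36 and 9.94 and rose with a slope of 0.28 ± 0.06 (limma adjusted p = 0.0163). Of the 4 kept LAMP2 probe sets, 2 stood 2-fold or more above untreated at 72 h, and the other 2 were 0.11 and 0.41 higher. The probe set that was 0.41 higher read 8.82 in untreated cells, above the 8.53 of the one used. The call of LAMP2 was lost without the 72 h array, with the bioC level as a covariate and with a shift on all hybridisation controls, and the difference between the slopes of LAMP1 and LAMP2 was not tested.

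SCARB2 (LIMP-2), the membrane receptor that carries glucocerebrosidase to lysosomes, read 6.38, 6.04, 5.75, 6.09, 6.72 and 8.91. It was lowest at 12 h, and the 72 h array stood 2.19 above the 48 h array. All 4 kept probe sets were 2-fold or more higher at 72 h, by 1.60 to 2.53, while the trend was not called (slope 0.43 ± 0.16, limma adjusted p = 0.106).

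MCOLN1, the calcium channel of the lysosomal membrane (mucolipin 1), read 6.13, 5.72, 6.18, 6.29, 6.74 and 7.66 and rose (limma adjusted p = 0.0296). NPC1, the cholesterol exporter, read 6.48, 6.50, 6.91, 7.12, 7.02 and 7.54 and rose (limma adjusted p = 0.025). CD63, a tetraspanin of late endosomes and granules, was 0.93 higher at 72 h and rose (limma adjusted p = 0.0313). These 3 calls were lost without the 72 h array and without the 4 h array. MCOLN1 also lost its call without the 12 or 48 h array, NPC1 without the untreated array and CD63 without the 48 h array. Under both shifts on spiked controls NPC1 and CD63 lost their calls, and MCOLN1 did under the shift without bioC. CD63 also lost it with the bioC level as a covariate, and NPC1 with the mean of probe sets, where its slope was 0.057.

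**Figure D2:**
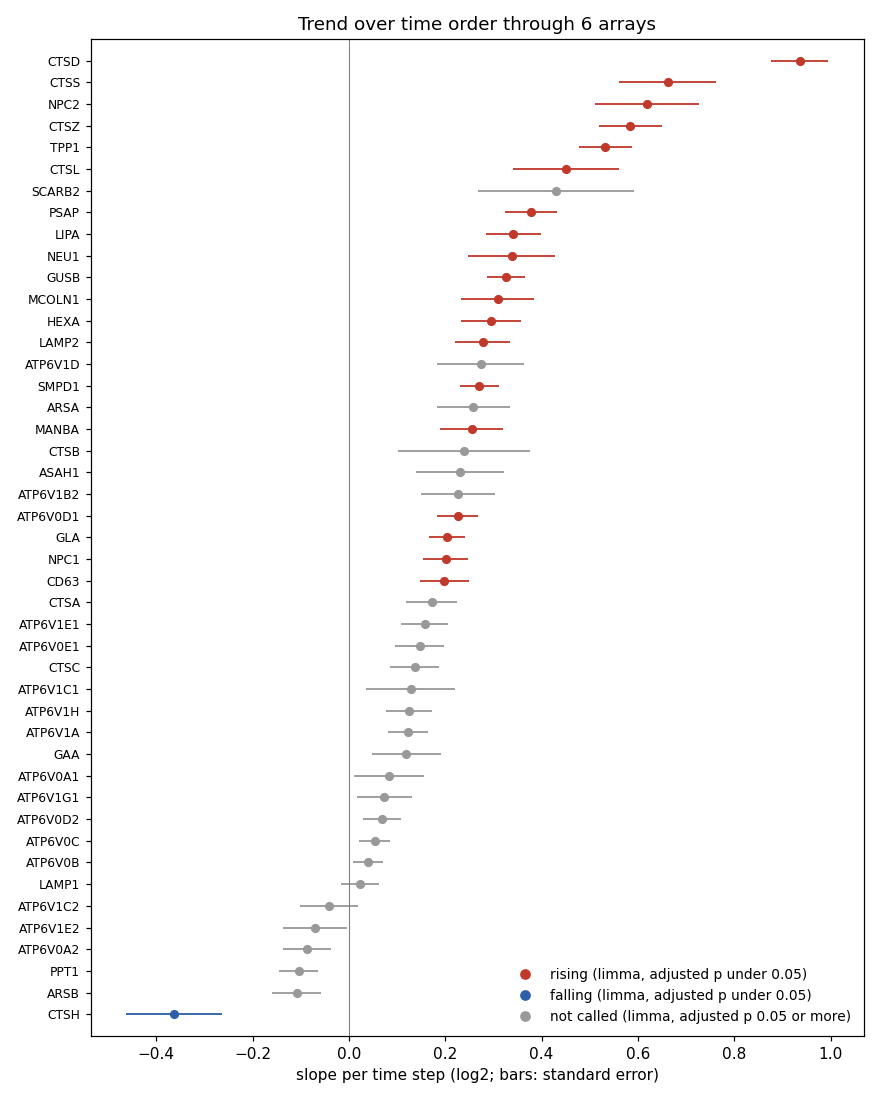
Slope per time step on the log2 scale (horizontal axis) with its standard error (bars) for each of the 45 kept genes, from the limma trend through the 6 arrays. The 19 rising genes (red) reach 0.94 for CTSD, CTSH (blue) is the 1 falling gene, and 25 (grey) were not called, among them SCARB2 with a slope of 0.43 and a standard error of 0.16.

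Most subunits of the proton pump had smaller differences than the other classes, which was not tested. Of 23 genes, 16 were kept, with a median difference of 0.48 at 72 h, which became -0.086 when arrays were shifted to equal spiked controls without bioC. ATP6V0D1 rose, none fell, and 3 of the 16 were 2-fold or more higher at 72 h (18.8%), against 10.9% of all kept genes. Kept V0 genes (7) had a median of 0.36 and kept V1 genes (9) of 0.57. The shift without bioC moved all genes at 72 h by the same -0.56, so it could not change the difference between the pump and the other classes.

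ATP6V0D1, for the d1 subunit that joins the V0 and V1 sectors, read 9.07, 9.24, 9.37, 9.41, 9.85 and 10.27. Each array was above the one before, with a slope of 0.23 ± 0.04 (limma adjusted p = 0.0133). The call was lost without the 72 h array and under both shifts on spiked controls. ATP6V1B2, for the B2 subunit of the ATP-binding head, read 8.16, 8.03, 7.91, 8.07, 8.62 and 9.36 and was not called (limma adjusted p = 0.0789).

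ATP6V1D, for a subunit of the central rotor, read 7.58, 8.83, 7.80, 8.68, 9.01 and 9.21. Its low arrays were 0 and 12 h, the arrays with the higher bioC, and the part of the array difference in this pattern was not tested. The trend was not called (slope 0.27 ± 0.09, limma adjusted p = 0.0732). The probe set used is of a kind prone to cross-hybridisation. A second kept probe set showed the same order of arrays with smaller differences, at 7.69, 8.15, 7.71, 8.06, 8.45 and 8.78. It was 2-fold or more higher at 72 h but not at 4, 24 or 48 h.

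The proteolipid gene ATP6V0C and its companion ATP6V0B, which form the proton-conducting ring, were 0.31 and 0.26 higher at 72 h. ATP6V1A, for the catalytic A subunit, was 0.51 higher, ATP6V1H 0.57, ATP6V1C1 0.79, ATP6V1E1 0.89 and ATP6V1G1 0.28 higher. None of these was called. At 72 h the 4 kept probe sets of ATP6V1C1 differed from untreated by -0.56 to 0.83, and the second kept one of ATP6V1G1 was 0.80 higher. ATP6V0E1 was 0.79 higher in its brightest probe set, and the 5 others that were kept were 2-fold or more higher. ATP6V1E2 was 0.49 lower. ATP6V0D2 passed the filter only through its 72 h value (3.69) and ATP6V1C2 only through its 4 h value (3.79). ATP6V0E2, ATP6V0E2-AS1, ATP6V1B1, ATP6V1G2 and ATP6V1G3 were below the filter, and ATP6V1F and ATP6V1G2-DDX39B had no probe set of their own.

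The a subunits of V0 steer the pump to particular membranes. ATP6V0A1 read 7.15, 6.44, 7.05, 6.84, 6.89 and 7.51 and was not called (limma adjusted p = 0.488). ATP6V0A2 read 6.99, 6.46, 6.53, 6.65, 6.52 and 6.32, below untreated on every later array, and was not called (limma adjusted p = 0.27). Of its 5 kept probe sets, 2 were 2-fold or more lower at 72 h, by up to 1.85. The gene of the a3 subunit has the symbol TCIRG1 and so lies outside the symbol rule. It read 8.12, 8.28, 9.20, 9.14, 9.89 and 10.64, 5.75-fold above untreated at 72 h, and rose with a slope of 0.50 ± 0.06 (limma adjusted p = 0.00214). This call held in all 16 alternative fits.

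**Figure D3:**
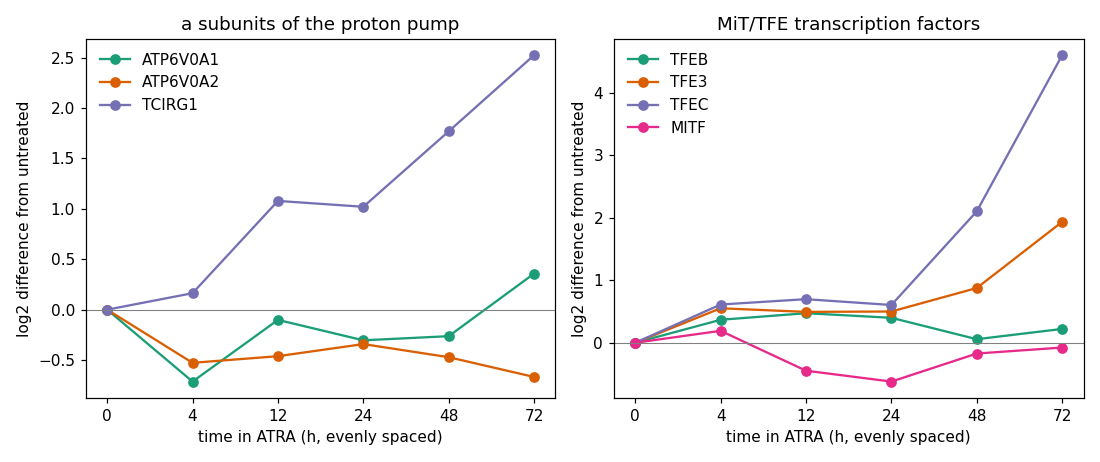
Log2 difference from the untreated array (vertical axes) against time in ATRA (horizontal axes, evenly spaced) for 3 genes of pump a subunits (left) and 4 MiT/TFE transcription factor genes (right); each point is 1 array. TCIRG1 reaches 2.52 at 72 h while ATP6V0A2 is at -0.67, and TFEC reaches 4.61 while TFEB is at 0.22.

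The members differed in when their transcripts became higher. At 4 h, 3 of the 45 were 2-fold or more higher (CTSD, CTSZ and ATP6V1D), against 1.74% of all kept genes. At 12 h CTSD, CTSZ and TPP1 were (2.3% of all kept genes), and at 24 h GUSB and ATP6V1D were added (3.35%). At 48 h the count was 10, against 5.83% of all kept genes. The second kept probe set of ATP6V1D was under 2-fold at 4, 24 and 48 h. CTSH was the 1 member 2-fold or more lower at 12, 24 and 48 h, and no member was at 4 h. Of all kept genes, 1.81%, 1.93%, 1.99% and 4.49% were that much lower at 4, 12, 24 and 48 h. Outside the pump the share went from 6.9% at 4 h to 31.0% at 48 h and 72.4% at 72 h, while in the pump it was 6.25% at 4, 24 and 48 h, 0 at 12 h and 18.8% at 72 h.

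The last interval held the largest step for many members. From 48 to 72 h, 11 of the 45 went up by 2-fold or more (CTSB, CTSD, CTSL, CTSS, CTSZ, NEU1, ARSA, ASAH1, PSAP, NPC2 and SCARB2) and none went down by as much, against 4.74% and 2.14% of all kept genes. This interval had the largest step of the time course in 22 members (48.9%), all upward. It had the largest step in 29.9% of all kept genes, of which 1646 went up and 2423 down. Among the monocyte and macrophage markers, the linear level of MERTK went from 273.1 to 1208 in this interval. The sum of the other 10 with a probe set went from 164.0 to 290.3. Of the 5 kept markers of that list, 4 went up by 2-fold or more, against 4.74% of all kept genes. The part of these markers in the lysosomal steps was not tested.

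Of the 24 members 2-fold or more higher at 72 h, 4 had at least 50% of their log2 difference at 24 h: NPC1, GUSB, TPP1 and ATP6V1D. In the second kept probe set of ATP6V1D the 24 h value (8.06) was nearer the untreated one (7.69) than the 72 h one (8.78). At the other end, 11 had under 25% of it at 24 h, and for CTSB, SCARB2, ASAH1 and ATP6V1B2 the 24 h array was below the untreated one. All 4 of these late members were without a trend call. Of the 24, 17 were called rising.

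**Figure D4:**
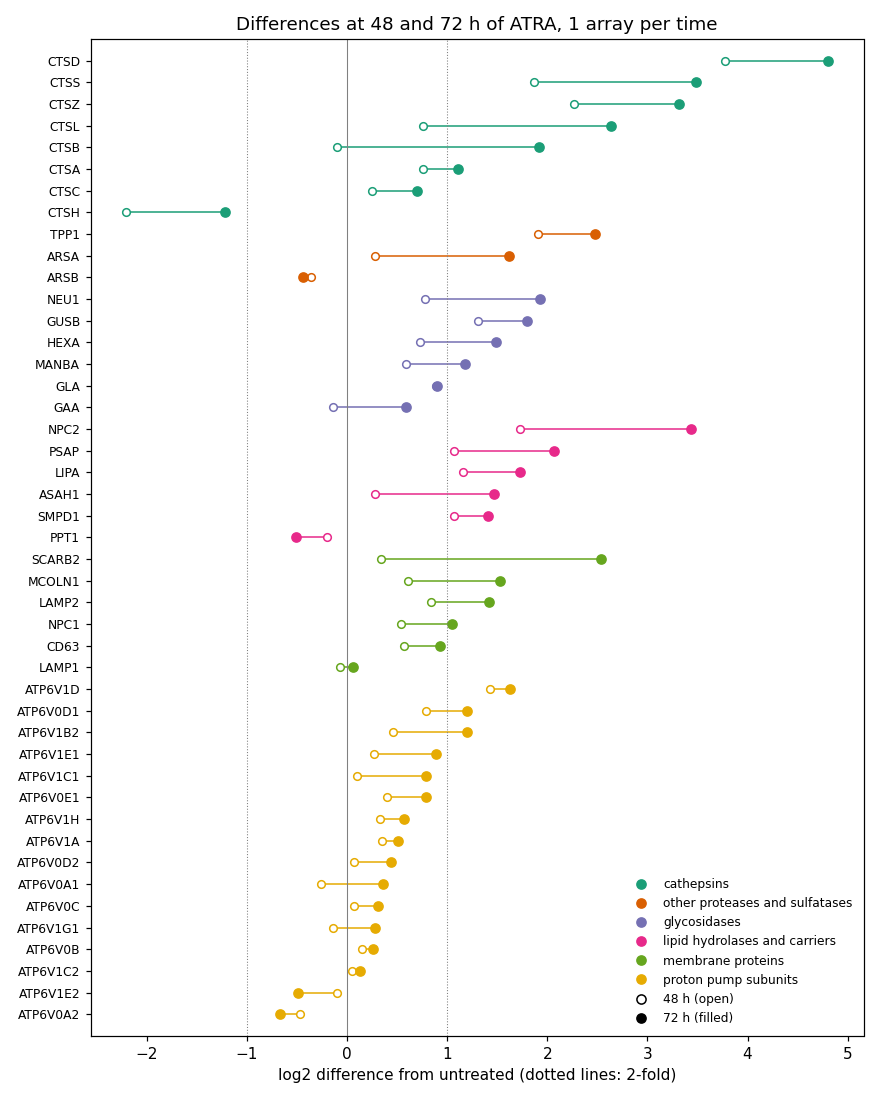
Log2 difference from the untreated array at 48 h (open circles) and 72 h (filled circles) for the 45 kept genes, ordered within class and coloured by class; dotted lines mark 2-fold. CTSB and SCARB2 move from -0.10 and 0.34 at 48 h to 1.92 and 2.53 at 72 h, and GLA shows the same value at both times.

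**Figure D5:**
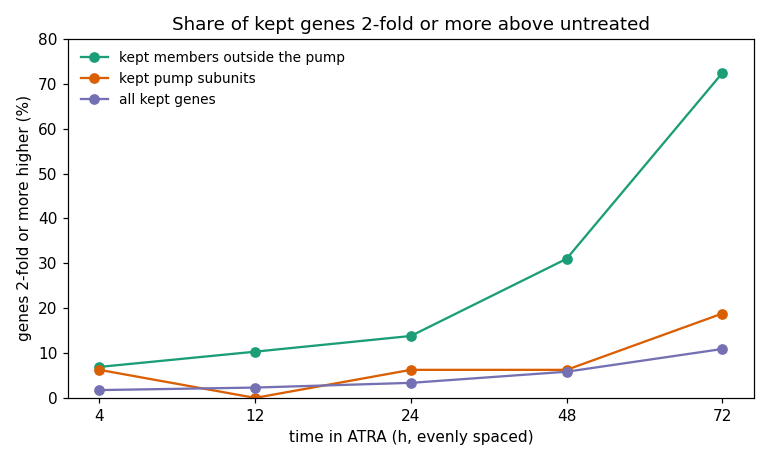
Share of genes 2-fold or more above the untreated array (vertical axis, percent) against time in ATRA (horizontal axis, evenly spaced) for the 29 kept members outside the pump, the 16 kept pump subunits and all 13594 kept genes. At 72 h the shares are 72.4%, 18.8% and 10.9%.

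Genes that regulate or accompany the lysosome were read from lists outside the set. Of 15 regulators of lysosomal genes and of nutrient signalling at the lysosome, 14 were kept, with a median of 0.58 at 72 h. In the trend 3 rose (TFEC, TFE3 and LAMTOR2) and none fell, against 8.33% and 9.86% of all kept genes. TFEC read 3.57, 4.19, 4.27, 4.18, 5.68 and 8.18, at least 22.9-fold higher at 72 h with the untreated value set to the filter (limma adjusted p = 0.0185). TFE3 read 7.01, 7.56, 7.50, 7.51, 7.89 and 8.95 (limma adjusted p = 0.027). The factors TFEB and MITF, named here after their values were seen, differed by 0.22 and -0.08 at 72 h and were not called. The calls of TFEC and TFE3 were lost without the 72 h array and with the bioC level as a covariate, and that of TFE3 also without the untreated or 12 h array. LAMTOR2 kept its call in 6 of 16 alternative fits.

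Of 11 genes of mannose 6-phosphate tagging and enzyme sorting, 10 were kept and none rose or fell in the limma trend, with a median of -0.14 at 72 h. The cation-dependent receptor gene M6PR was 1.01 higher at 72 h (limma adjusted p = 0.0569). The 29 kept members of the set outside the pump had a median of 1.49 at 72 h. The difference from the sorting genes was not tested.

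Of 34 further lysosomal hydrolases 21 were kept, with a median of 0.12 at 72 h. In the trend 5 rose and 1 fell, against 8.33% and 9.86% of all kept genes. At 72 h, 6 of the 21 were 2-fold or more higher and 1 was as far below, against 10.9% and 12.2%. GM2A, the activator that presents ganglioside GM2 to beta-hexosaminidase, was 2.24 higher, IDUA, which acts on heparan and dermatan sulfate, 2.11 and SCPEP1 1.72 higher, and all rose. ACP2, an acid phosphatase, was 2.26 higher and not called (limma adjusted p = 0.0714). The call of IDUA was lost without the 72 h array and with the bioC level as a covariate.

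Of 21 further lysosomal membrane proteins 20 were kept, with a median of 0.68 at 72 h. In the trend 3 rose and 1 fell, against 8.33% and 9.86% of all kept genes. At 72 h, 8 of the 20 were 2-fold or more higher and 1 was as far below, against 10.9% and 12.2%. OSTM1, the beta subunit of the lysosomal chloride exchanger, was 2.10 higher and LAPTM5 1.83 higher, and both rose. TPCN1, an endolysosomal cation channel, was 1.63 lower and fell. SIDT2 was 2.20 higher and not called (limma adjusted p = 0.081). The calls of OSTM1 and LAPTM5 were lost without the untreated array, and those of OSTM1 and TPCN1 without the 72 h array. OSTM1 also lost its call with the bioC level as a covariate, and TPCN1 with a shift on all hybridisation controls.

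Of 12 accessory and assembly genes of the pump 11 were kept, with TCIRG1 and ROGDI rising and VMA21 falling. Over all kept genes 8.33% rose and 9.86% fell. VMA21, an assembly factor of the V0 sector, read 10.05, 9.97, 9.55, 9.41, 9.25 and 8.55 (limma adjusted p = 0.00728), and its call was lost with the mean of probe sets and with a shift on all hybridisation controls. NCOA7, a protein that binds the pump, read 6.17, 6.34, 5.89, 6.08, 7.54 and 10.73 and was not called (limma adjusted p = 0.0562). Its 72 h array was 23.6-fold above untreated. The call of ROGDI, 1.02 higher at 72 h, was lost without any 1 of the 0, 4, 12 and 48 h arrays, with the bioC level as a covariate and under both shifts on spiked controls.

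Of 7 inhibitors of cathepsins and granule proteases 5 were kept. CST7 (cystatin F, an inhibitor of cysteine cathepsins in immune cells) read 9.50, 9.25, 8.02, 7.20, 5.32 and 3.12 and fell, at least 57.1-fold lower at 72 h (limma adjusted p = 0.0012). SERPINB1, an inhibitor of neutrophil serine proteases, read 5.81, 7.19, 8.93, 9.38, 9.97 and 11.25 and rose (limma adjusted p = 0.000503). The other three kept inhibitors, CSTA, CSTB and CST3, were within 0.45 of untreated at 72 h. Of 11 genes of lysosome tethering and transport 9 were kept, and PLEKHM1 and VPS41 rose, by 1.66 and 0.82 at 72 h. Rising calls made up 8.33% of all kept genes. The call of PLEKHM1 was lost without the 72 h array, and that of VPS41 without any 1 of the 6 arrays.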

How the data were processed

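Expression in NB4 cells was read from 6 Affymetrix arrays, 1 per time. Per the labels' protocols, total RNA was extracted and turned into biotin-labelled cRNA. The deposited values are on the log2 scale, 1 per probe set, and were made with RMA, per the submitters' processing notes. Its version is not given in the sources used here. RMA gives all arrays nearly the same distribution and so hides a change shared by most transcripts. The number of arrays limits the precision.

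In the platform annotation, 41097 of 54675 probe sets had 1 gene, 1801 several and 11777 none. After 62 controls were left out, 41091 remained, and 41037 of these took their current symbol from the RefSeq gene table (GRCh38.p14) by Entrez identifier. Each of 19775 genes was read from its probe set with the highest mean, and the 13594 genes with at least 1 value of 3.66 (the median over the whole table) or more were kept. Apart from the choice of the brightest probe set and the summed marker levels, levels of different probe sets were not compared.

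The 5 ATRA times were compared with untreated cells by subtraction of log2 values, with a count of genes at 2-fold or more and no test since each is a single array. Folds with an end below 3.66 used 3.66 for that end. Summed marker levels add linear values of all list genes with a probe set. A trend over time order (0 to 5) was fitted to all kept genes in R 4.3.3 with lmFit and eBayes (trend = TRUE) of limma 3.58.1, with calls at a Benjamini-Hochberg adjusted p under 0.05. Its p-values test a slope of 0 against the scatter of the arrays about the fitted line, as there are no replicates. Tested on simulated data of 13594 genes, 57 of 100 planted slopes of 0.3 log2 units per step were found. Of 100 planted slopes of 0.6, 88 were found, and 12 unchanged genes were called. The simulated noise was independent between genes and arrays and held no array difference such as that of bioC. These counts therefore do not give the error rate in the real data.

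Members and gene lists were chosen with earlier results of these data known. All members may be named, and of each other list up to 4 kept genes with the largest difference at 72 h, with other genes of lists of 12 or fewer members where a count is spelled out. LAMTOR2, TFEB and MITF fall outside this rule. Motifs were searched on both strands in the first listed RefSeq window of each gene. Alternatives were cyclic loess, shifts on spiked controls, other probe set rules and filters, hours as time scale, bioC as a covariate, other baselines, other fold thresholds and leaving out arrays.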

Additional observations from a re-analysis of the deposited data

How the results depend on the processing

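Of the 45 kept members' slopes, 626 comparisons with an alternative fit kept their side of the threshold, 71 lost the call and 17 gained one. In 0 did the sign reverse with a call in either fit. Sign changes of uncalled slopes were counted as kept. Among them were CTSB (0.24 in the main fit, -0.072 without the 72 h array) and PPT1 (-0.10, and 0.043 with the shift on all controls). CTSD, CTSS and TPP1 kept their call in all 16 alternative fits, and CTSZ, NPC2, PSAP and GUSB in 15, losing it only with the 4 arrays of 1 bioC level, where fewer arrays were fitted. The rising count of 19 was 3 with those arrays, 12 with a shift on the spiked controls without bioC, 14 with bioC as a covariate, 15 with the shift on all controls, 21 with a filter at percentile 75, 27 with cyclic loess, 28 with hours, and 9 to 20 when each array was left out in turn, lowest without the 72 h array. Over all kept genes the rising count of 1132 was 299 with the arrays of 1 bioC level, 440 without the 72 h array and 671 with bioC as a covariate. Shifting on all controls changed the rising and falling shares of all kept genes from 8.33% and 9.86% to 7.64% and 0.353%, and shifting without bioC changed them to 5.41% and 24.0%. The falling count of 1 was 0 with bioC as a covariate, cyclic loess, hours, arrays of 1 bioC level or the shift on all spiked controls, 2 with the mean of probe sets or the shift without bioC, and 0 to 1 when each array was left out. The 24 members 2-fold or more higher at 72 h were 14 with the shift without bioC or a 3-fold threshold, 18 with the mean of probe sets, 30 with cyclic loess, 31 at 1.5-fold and 35 with the shift on all controls. The 1 lower member was 0 with cyclic loess, the shift on all controls or a 3-fold threshold, 2 at 1.5-fold and 4 with the shift without bioC.

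The shifts move all genes at 72 h by 0.66 (all controls) or -0.56 (without bioC), so class medians move by the same amount. The shift on all controls used their median and the shift without bioC used a mean, so they differ in more than bioC. With the former and the latter, the cathepsin median of 2.28 became 2.94 and 1.71, the glycosidase median of 1.33 became 2.0 and 0.77, the membrane median of 1.23 became 1.90 and 0.67, the lipid median of 1.60 became 2.26 and 1.04, and the pump median of 0.48 became 1.14 and -0.086. Cyclic loess gave 1.48 for membrane proteins, 1.90 for lipid genes and 0.75 for the pump. The mean of probe sets gave 1.85 for cathepsins and 0.89 for membrane proteins. The cause was not tested where fits rather than shifts differ. No paired analysis was possible because there is 1 array per time.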
